A study of Homo sapiens with 2 samples.

Results

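Kinesins are the motor proteins that walk along microtubules, and their genes were compared here between MKN45P, a gastric cancer cell line described as highly metastatic, and MKN45, the human gastric cancer line it was derived from. There was 1 exon array of each line, made from total RNA of cultured cell lysate, and both lines were grown in the same medium without any treatment. An exon array reads each gene through several small groups of probes, called probesets. The members were all genes whose symbol has the form KIF or KIFC followed by a number and, where present, a letter from A to C, taken from probesets that name a single gene. They came to 42 genes with 1099 probesets, of 18923 genes on the array, and each gene had between 1 and 62 probesets.

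Kinesins turn the energy of ATP into steps along microtubules or into the shortening of microtubule ends. One branch of the family builds and splits the mitotic spindle and the bridge between daughter cells, and many of its genes are switched on as cells approach mitosis. Another branch carries vesicles, mitochondria and ciliary building blocks through the cytoplasm of non-dividing and dividing cells alike. A few members are almost confined to neurons, testis or ciliated cells. By these known roles 14 genes were grouped as mitotic, 15 as transport and 13 as other kinesins, the last group holding regulators of microtubule length, ciliary kinesins and poorly studied members.

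All values are on a log2 scale, so that a difference of 1 is 2-fold. MKN45 was subtracted from MKN45P at each probeset, the median of these differences stands for the gene, and their 25th to 75th percentile is given as its spread. That spread lies within these 2 arrays. With 1 array of each line there was no error between cultures and no test, so every call below is by size alone. Genes were called measured when they had 4 or more probesets and a level, averaged over both lines, no lower than 1.92, which is the array's median. Probesets with signal are those with a level of 2.77 or more, the 75th percentile. Of the 42 kinesins 36 were measured, 12 of them mitotic, 13 transport and 11 other kinesins.

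Both lines carried the epithelial identity of their label. The 8 epithelial markers examined had median levels from 3.13 to 10.74 in MKN45P and from 3.31 to 10.26 in MKN45. Neuronal markers, which bear on the kinesins known from neurons, lay between 1.80 and 2.35 in MKN45P and between 1.79 and 2.26 in MKN45. Of the 8 on that list 7 were named on the array and 2 were measured, SYP at a difference of -0.09 and TUBB3 at 0.08. Immune markers ranged from 1.65 to 2.50 in MKN45P and from 1.66 to 3.12 in MKN45, and fibroblast markers from 1.69 to 2.86 in MKN45P and from 1.82 to 2.62 in MKN45. Endothelial markers ranged from 1.74 to 2.05 in MKN45P and from 1.75 to 2.12 in MKN45. Their part in the kinesin values was not tested.

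By the median over probesets most kinesin genes differed little between MKN45P and MKN45, and 3 stood past 2-fold. KIF21B and KIF2C were higher in MKN45P and KIF20A was lower. The 2 higher genes are 5.56% of the measured kinesins, where 4.58% of all 13130 measured genes were 2-fold higher. The 1 lower gene is 2.78%, where 1.20% of all measured genes were 2-fold lower. Together the 3 genes are 8.33%, against 5.78% in either direction over all measured genes. Counts this small are near the background. The median difference over the 36 kinesins was 0.01 (25th to 75th percentile over genes -0.17 to 0.24), against 0.03 (-0.13 to 0.30) over all measured genes. Of the 36 genes, 19 had a positive and 17 a negative difference, and 31 lay within 0.5 of 0 (86.1%, against 79.6% of all measured genes). This share depends on the summary, because some genes lay close to the level limit, such as KIF20B at 2.09 and KIF16B at 2.18. Over probesets with signal more kinesins passed 0.5, among them KIF20B (0.85), KIF9 (0.78), KIF16B (0.69) and KIF12 (-1.21). Others, such as KIF15 (0.23) and KIF24 (0.03), did not. The all-gene share within 0.5 in that setting is not given here. Genes with more signal tended to lie higher in MKN45P, with a median of 0.12 over the 8081 genes whose own level reached 2.77. The 25 kinesins at such levels had a median of -0.06.

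**Figure D1:**
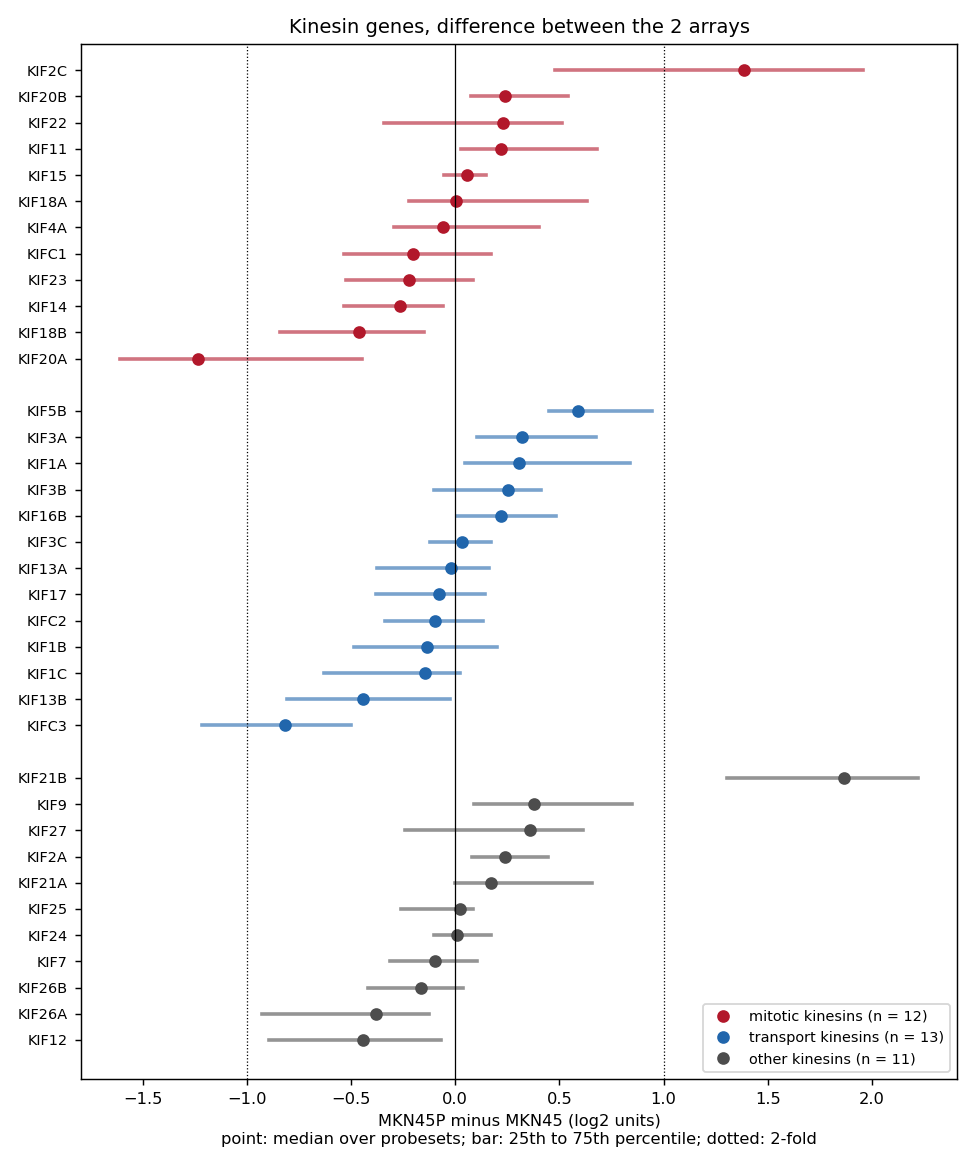
Difference of each measured kinesin gene between MKN45P and MKN45 in log2 units, as the median over probesets (point) with the 25th to 75th percentile of the probeset differences (bar), in 3 role groups. KIF2C at 1.39 and KIF21B at 1.87 lie beyond the upper 2-fold line, KIF20A at -1.24 lies beyond the lower one, and the other 33 genes lie between the lines.

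As groups, mitotic and transport kinesins were alike at their centre. The median difference was -0.03 over 12 mitotic genes (-0.23 to 0.22) and -0.02 over 13 transport genes (-0.14 to 0.25), so the medians were 0.01 apart, with the mitotic one lower. Mitotic genes ran from -1.24 (KIF20A) to 1.39 (KIF2C) and transport genes from -0.82 (KIFC3) to 0.59 (KIF5B), ends that rest on single genes. The shares within 0.5 of no difference were close, 83.3% of mitotic and 84.6% of transport genes. The difference between the medians took either sign when the processing was changed, from -0.05 to 0.21. The 11 other kinesins had a median of 0.02 and ran from -0.44 to 1.87.

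KIF2C, also known as MCAK, is a kinesin that does not walk but takes tubulin off microtubule ends, and it corrects wrong attachments of chromosomes to the spindle. Its 26 probesets had a median level of 5.60 in MKN45P (lowest 1.67, highest 9.04) and 4.27 in MKN45 (1.63 to 7.70). The values overlap as ranges because probesets differ in brightness, but probeset by probeset 25 of 26 were higher in MKN45P. The median difference was 1.39 (0.48 to 1.96), or 2.62-fold. Over the 21 probesets with signal it was 1.80. Over all settings tried it stayed between 1.23 and 1.80.

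KIF20A, or MKLP2, brings the chromosomal passenger complex to the middle of the anaphase spindle and is needed for the cut between daughter cells. Its 22 probesets had a median level of 2.63 in MKN45P (1.69 to 5.81) and 4.38 in MKN45 (1.73 to 8.10). Of these 20 were lower in MKN45P, and the 2 exceptions were near the low end in both lines. The median difference was -1.24 (-1.61 to -0.45), so that KIF20A was 2.35-fold lower. The 13 probesets with signal gave -1.53, and the settings tried gave values from -1.75 to -1.17. KIF20A and KIF2C are both spindle genes of dividing cells, and they lay on opposite sides of 0. In RNA from a whole culture, fewer cells in mitosis and less RNA per such cell cannot be told apart.

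The other 10 measured mitotic kinesins were within 0.5 of no difference by the median over probesets, and 4 of them, KIF18B, KIF14, KIFC1 and KIF20B, passed 0.5 under another setting. KIF18B, a plus-end motor that acts on astral microtubules together with KIF2C, had levels of 5.26 in MKN45P and 5.66 in MKN45. Its difference was -0.46 (-0.84 to -0.15), and 17 of its 19 probesets were lower in MKN45P, the side opposite to KIF2C. Over probesets with signal it was -0.64. KIF14, which binds citron kinase and PRC1 at the midbody, was at 2.54 in MKN45P and 2.83 in MKN45, with a difference of -0.27 and 37 of 44 probesets lower, and -0.53 over probesets with signal. Both genes were thus lower at most of their probesets.

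KIF23, or MKLP1, the motor of the centralspindlin complex, was at 4.87 in MKN45P and 4.94 in MKN45, a difference of -0.22 (-0.53 to 0.09). KIFC1, a minus-end motor that gathers spindle poles, was at 4.39 in MKN45P and 4.97 in MKN45, a difference of -0.20 (-0.53 to 0.17), and its median levels differed by -0.58. KIF4A, a chromosome-bound motor that works with PRC1, was at 3.64 in MKN45P and 3.98 in MKN45, a difference of -0.06 (-0.30 to 0.40). The spread of each of these genes spanned 0. KIF4A shares almost its whole coding sequence with KIF4B, so its probes may also read KIF4B RNA and its value is uncertain. Over probesets with signal the sign of KIF4A was positive (0.18).

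KIF11, or Eg5, which pushes spindle poles apart, was at 3.27 in MKN45P and 3.22 in MKN45. Its median difference was 0.22 (0.03 to 0.68), with 20 of 26 probesets higher. KIF15, a motor that can stand in for KIF11, had levels of 2.23 in MKN45P and 2.29 in MKN45 and a difference of 0.06 (-0.05 to 0.15), whose sign changed with the processing. KIF18A, which damps the swinging of chromosomes at the spindle equator, was at 2.66 in MKN45P and 2.35 in MKN45, with a median difference of 0.00. KIF22, a chromosome-arm motor, was at 5.04 in MKN45P and 4.70 in MKN45, a difference of 0.23 (-0.34 to 0.51). The difference of KIF11 stayed positive under all settings, from 0.05 to 0.38, while the spread of KIF15 held both signs.

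KIF20B, a relative of KIF20A that also acts in cytokinesis, showed the reverse sign to KIF20A. Its levels were 2.29 in MKN45P and 1.98 in MKN45. The difference was 0.24 (0.08 to 0.54), and 36 of 42 probesets were higher in MKN45P. Over its 15 probesets with signal it was 0.85, still under 2-fold.

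**Figure D2:**
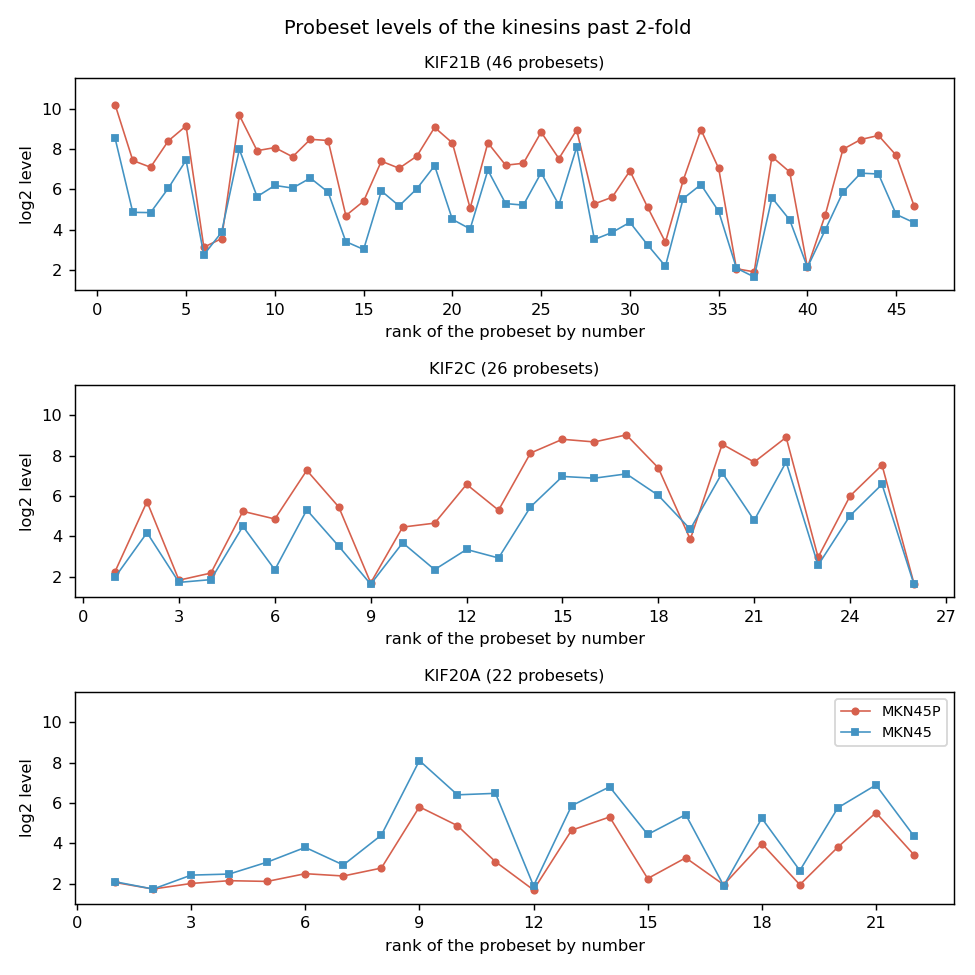
Log2 level of every probeset of KIF21B, KIF2C and KIF20A in MKN45P (circles) and MKN45 (squares), in order of probeset number. In KIF21B 43 of 46 and in KIF2C 25 of 26 probesets are higher in MKN45P, and in KIF20A 20 of 22 are lower.

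Many genes of mitosis share 2 short promoter elements, the cell cycle genes homology region (CHR), read by complexes built on MuvB proteins, and the CCAAT box, read by NF-Y. The letters TTTGAA for CHR and CCAAT for the box were searched on both strands in RefSeq windows of 300 bases, from 250 before to 50 after the transcription start (GRCh38.p14). Matches to the different motifs can overlap by at most 1 base. The motifs were chosen after the array values were seen, and a gene counted when any of its windows held a match. Windows of 34 of the 42 kinesins were used, without KIF21B, KIF5A, KIF13B, KIF19, KIF26B, KIF27, KIFC2 and KIFC3. TTTGAA occurred in 10 of 14 mitotic kinesins (71.4%), 1 of 11 transport kinesins (KIF5B, 9.09%) and 0 of 9 other kinesins, and in 18.2% of all 27305 genes with a window. CCAAT occurred in 11 of 14 mitotic, 4 of 11 transport and 3 of 9 other kinesins, and in 39.7% of all genes. These are shares of letters in a window and do not show that a site is used. Only these 2 spellings were searched, so a window without a match can still hold another form of an element.

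Of the 4 mitotic kinesins without TTTGAA, KIF20A and KIF2C were past 2-fold, KIF22 differed by 0.23 and KIF2B was not measured. TTTGAA occurred in 23 of 31 mitotic partner genes (74.2%), among them NDC80, which was 2-fold higher in MKN45P, so the genes past 2-fold included some with and some without it. Their windows are shown beside those of KIF23 and KIF11, which hold both motifs and differed little between the lines. Capitals mark each match to TTTGAA or CCAAT, which on the opposite strand read TTCAAA and ATTGG. The windows lie on the plus strand at chr5:138178862-138179161 (KIF20A), chr1:44739587-44739886 (KIF2C), chr15:69414099-69414398 (KIF23) and chr10:92592880-92593179 (KIF11).
KIF20A: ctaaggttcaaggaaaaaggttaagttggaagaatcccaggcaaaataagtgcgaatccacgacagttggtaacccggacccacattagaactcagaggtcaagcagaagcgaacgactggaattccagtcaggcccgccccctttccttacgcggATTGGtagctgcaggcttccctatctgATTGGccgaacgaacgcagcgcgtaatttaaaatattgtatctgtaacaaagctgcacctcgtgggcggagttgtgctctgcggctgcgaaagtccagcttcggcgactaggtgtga
KIF2C: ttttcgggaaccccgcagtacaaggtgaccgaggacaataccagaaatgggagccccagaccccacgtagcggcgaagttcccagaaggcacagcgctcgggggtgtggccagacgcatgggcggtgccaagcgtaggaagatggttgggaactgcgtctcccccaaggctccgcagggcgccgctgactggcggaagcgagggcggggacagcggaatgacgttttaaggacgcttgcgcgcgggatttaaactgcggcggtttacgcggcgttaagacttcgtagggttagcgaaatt
KIF23: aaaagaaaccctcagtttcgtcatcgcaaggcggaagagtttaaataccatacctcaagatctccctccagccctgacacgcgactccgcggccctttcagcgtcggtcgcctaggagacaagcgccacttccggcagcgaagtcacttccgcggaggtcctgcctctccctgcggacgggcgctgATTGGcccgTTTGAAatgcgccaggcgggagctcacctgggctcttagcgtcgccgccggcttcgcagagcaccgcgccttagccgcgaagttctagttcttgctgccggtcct
KIF11: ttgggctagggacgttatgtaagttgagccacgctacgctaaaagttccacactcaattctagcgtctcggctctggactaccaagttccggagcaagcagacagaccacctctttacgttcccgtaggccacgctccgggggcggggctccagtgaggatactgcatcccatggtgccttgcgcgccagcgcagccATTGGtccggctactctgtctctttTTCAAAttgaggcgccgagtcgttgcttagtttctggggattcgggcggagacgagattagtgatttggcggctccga
KIF20A has 2 CCAAT matches, starting 94 and 67 bases before the start, and no TTTGAA. KIF2C has neither of these 2 spellings in this window. In KIF23 the CCAAT match starts 64 and the TTTGAA match 55 bases before the start. In KIF11 they start 53 and 28 bases before it.

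Among transport kinesins none of the 13 measured genes passed 2-fold, and by the median over probesets the outermost were KIFC3 and KIF5B. By difference of median levels KIF3A (0.73) and KIF1A (0.63) lay above KIF5B (0.49), and over probesets with signal KIF16B (0.69) lay above KIF5B (0.59). KIFC3 is a minus-end motor that anchors microtubules at epithelial junctions and acts at the Golgi. Its 31 probesets had a median level of 4.38 in MKN45P (1.73 to 7.81) and 5.13 in MKN45 (1.86 to 8.59), and 30 of them were lower in MKN45P. The median difference was -0.82 (-1.22 to -0.50), a 1.76-fold lower level, and it stayed between -0.92 and -0.76 under all settings.

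KIF5B, the kinesin-1 heavy chain found in most tissues, lay higher in MKN45P. Its 28 probesets had a median level of 6.37 in MKN45P (3.06 to 10.23) and 5.88 in MKN45 (2.55 to 10.27). Of these, 27 were higher in MKN45P. The difference was 0.59 (0.45 to 0.94), or 1.51-fold, and all 28 probesets had signal. KIF5A, KIF5B and KIF5C are close in sequence, and whether their probes read one another was not tested. The neuronal kinesin-1 chains KIF5A and KIF5C did not reach the level filter, at 1.83 and 1.78 in MKN45P and 2.01 and 1.81 in MKN45.

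Kinesin-2 motors move building blocks into cilia. KIF3A was at 2.84 in MKN45P and 2.11 in MKN45, with a difference of 0.32 (0.10 to 0.68) and 20 of 23 probesets higher. Its partner chain KIF3B was at 4.70 in MKN45P and 4.71 in MKN45, with a median of probeset differences of 0.25 (-0.10 to 0.41). The alternative partner KIF3C (2.25 in MKN45P, 2.13 in MKN45) had a difference of 0.03, and KIF17, which forms its own pairs (2.90 in MKN45P, 2.98 in MKN45), one of -0.08. Of these chains KIF3A alone had a spread that did not reach 0, and the signs of KIF3B, KIF3C and KIF17 changed with the processing.

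The kinesin-3 genes carry vesicles and organelles and went both ways. KIF13B, a carrier of the scaffold protein DLG1, was at 5.23 in MKN45P and 5.41 in MKN45, with a difference of -0.45 (-0.81 to -0.03) and 40 of 51 probesets lower. KIF1C, a vesicle carrier, was at 5.23 in MKN45P and 5.29 in MKN45, a difference of -0.15. KIF1B, which carries mitochondria and vesicle precursors, was at 4.31 in MKN45P and 4.42 in MKN45, a difference of -0.14. KIF13A, a motor of recycling endosomes, was at 3.41 in MKN45P and 3.42 in MKN45, a difference of -0.02. These 3 genes each had a spread across 0. KIF16B, which binds early endosomes through a lipid-binding domain, was at 2.34 in MKN45P and 2.09 in MKN45. Its difference was 0.22 (0.01 to 0.48) and reached 0.69 over its 11 probesets with signal. KIFC2, a minus-end motor best known from neurons, was at 3.36 in MKN45P and 3.19 in MKN45 and had a difference of -0.10 (-0.34 to 0.13) that changed sign with the processing.

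KIF1A, the carrier of synaptic vesicle precursors in neurons, passed the level filter, which takes the level averaged over both lines. Its 53 probesets had a median level of 3.05 in MKN45P (1.63 to 6.26) and 2.42 in MKN45 (1.55 to 5.51), and 40 were higher in MKN45P. The difference was 0.31 (0.05 to 0.84). Neuronal markers were at the low levels given above.

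The largest difference of any kinesin was that of KIF21B, placed among the other kinesins. KIF21B is a plus-end motor that also pauses microtubule growth, and it is best known from neurons and lymphocytes. Its 46 probesets had a median level of 7.41 in MKN45P (1.91 to 10.21) and 5.22 in MKN45 (1.66 to 8.54), and 43 were higher in MKN45P. The difference was 1.87 (1.31 to 2.22), or 3.65-fold, and between 1.70 and 2.19 under all settings. Split by probeset number, the lower-numbered 21 of its 43 probesets with signal gave 1.87 and the remaining ones 1.91. Single probesets ran from -0.32 to 3.79. Its close relative KIF21A was at 4.79 in MKN45P and 4.07 in MKN45, with a difference of 0.17 (-0.0033 to 0.65).

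The genes around the 3 kinesins past 2-fold lay closer to 0. KIF21B and KIF14 lie near each other on chromosome 1, with differences of 1.87 and -0.27. The 10 nearest measured genes of KIF21B, 5 on each side in the RefSeq gene order, had a median of -0.04 and ran from -0.36 to 0.33. Those of KIF2C, on another part of chromosome 1, had a median of 0.03 and ran from -0.34 to 0.48. Around KIF20A on chromosome 5 the median was 0.10, and the genes ran from -0.04 to 1.06. Of these 1 of 10 passed 2-fold, where 5.78% of all measured genes did. It was GFRA3 at 1.06, on the side opposite to KIF20A.

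The remaining other kinesins stayed under 2-fold by the median over probesets. KIF12, expressed in kidney and liver epithelia, was at 2.26 in MKN45P and 2.92 in MKN45, with a difference of -0.44 (-0.89 to -0.07) and 18 of 22 probesets lower. Over its 8 probesets with signal the difference was -1.21 and passed 2-fold, as 2.94% of all 10645 genes did downward in that setting. KIF26A, whose motor domain has lost its ATPase activity, was at 2.50 in MKN45P and 3.73 in MKN45. The median of its probeset differences was -0.38 (-0.93 to -0.13), and 14 of 16 probesets were lower. Its median levels differed by -1.23, and by that measure 2 kinesins were 2-fold lower and 2 higher of 36, against 2.32% and 9.62% of all measured genes. KIF26B, its relative, was at 2.26 in MKN45P and 2.53 in MKN45, a difference of -0.16.

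Members of the ciliary set lay on both sides of 0. KIF9, a motor of motile cilia and sperm tails in mice, was at 3.72 in MKN45P and 2.75 in MKN45, with a difference of 0.38 (0.09 to 0.85) and 22 of 26 probesets higher. The difference of KIF9 was larger over probesets with signal (0.78) and between its median levels (0.97). KIF7, a regulator of Hedgehog signalling at the ciliary tip, was at 3.58 in MKN45P and 3.54 in MKN45, a difference of -0.10. Its relative KIF27 was at 2.98 in MKN45P and 3.32 in MKN45, yet the median of its 4 probeset differences was 0.36. KIF24, which acts at centrioles, was at 2.15 in MKN45P and 2.21 in MKN45, a difference of 0.01. KIF25, a minus-end motor with a role at centrosomes, was at 2.17 in MKN45P and 2.18 in MKN45, a difference of 0.02. The signs of KIF7, KIF24, KIF25 and KIF27 changed with the processing. KIF2A, the relative of KIF2C that shortens microtubules in dividing cells and in neurons, was at 5.09 in MKN45P and 4.61 in MKN45 and differed by 0.24 (0.08 to 0.44), with 19 of 23 probesets higher.

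Besides KIF5A and KIF5C, 4 kinesins were not measured. KIF2B, known from testis, was at 1.85 in MKN45P and 1.79 in MKN45, and KIF6, known from ependymal cilia in mice, was at 1.71 in MKN45P and 1.75 in MKN45. KIF4B had 2 probesets, with medians of 1.83 in MKN45P and 1.84 in MKN45. KIF19, a ciliary length regulator, had 1, at 1.68 in MKN45P and 1.79 in MKN45. The levels of these 6 genes were near the low end of the scale in both lines, and no difference is read from them.

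Single probesets rarely departed from their gene. A probeset counted as departing when its difference was at least 2 away from that of its gene, among probesets with signal in measured genes. Of 632 kinesin probesets examined 5 departed (0.791%), each in a different gene, against 1.69% of 134550 probesets over all genes. At the 90th percentile of level 0 of 279 did, and the share over all genes at that level is not given here. The largest was probeset 2606896 of KIF1A, at 6.26 in MKN45P and 2.72 in MKN45, a difference of 3.54 and 3.23 above its gene. Probeset 3599833 of KIF23 was at 5.54 in MKN45P and 3.26 in MKN45, a difference of 2.28 and 2.50 above its gene. The other 3 departed downward.

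Of those, probeset 3554123 of KIF26A was at 2.46 in MKN45P and 5.03 in MKN45, 2.19 below its gene. Probeset 2830655 of KIF20A was at 3.08 in MKN45P and 6.48 in MKN45, 2.16 below a gene that was itself lower. Probeset 2450510 of KIF21B was at 3.56 in MKN45P and 3.87 in MKN45, 2.18 below its gene. Whether the order of probeset numbers follows the order of exons was not checked here, because positions were not used.

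Around each departing probeset the stretch of neighbours by number with the same sign was read, a step chosen after the values were seen. The shared sign within a stretch is fixed by this rule, and so is the change of sign where it ends inside a gene. The length of such stretches over all genes was not counted. In KIF1A the stretch held 18 probesets, from 2606876 to 2606907, higher in MKN45P by 0.05 to 3.54. Their median level was 3.52 in MKN45P and 2.41 in MKN45, and their median difference 1.13. The 12 probesets numbered before them had a median difference of 0.20 and the 23 after them one of 0.08. In KIF26A the stretch held 8 probesets, from 3554118 to 3554126, lower in MKN45P with a median difference of -0.74 (-2.57 to -0.16). Their median level was 2.87 in MKN45P and 4.07 in MKN45. In KIF20A the stretch held 14 probesets, lower in MKN45P with a median difference of -1.40 (-3.39 to -0.21). In KIF23 the stretch was 3 probesets long, with differences from 0.11 to 2.28, and in KIF21B the departing probeset had a higher one on both sides.

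Dividing each gene's probesets with signal into a lower-numbered and a higher-numbered part showed 2 uneven kinesins of 31 with at least 8 such probesets, KIF18A and KIFC1 (6.45%). Over all 6860 genes examined this way the share with parts 2-fold or more apart was 6.52%, nearly the same. In KIF18A the 5 lower-numbered probesets had a median difference of 0.87 and the 5 others one of -0.37. Each part held probesets of either sign, and the median over the whole gene was 0.00. In KIFC1 the parts had medians of -0.87 and 0.21. In KIF20A, by contrast, they were -1.58 and -1.49.

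**Figure D3:**
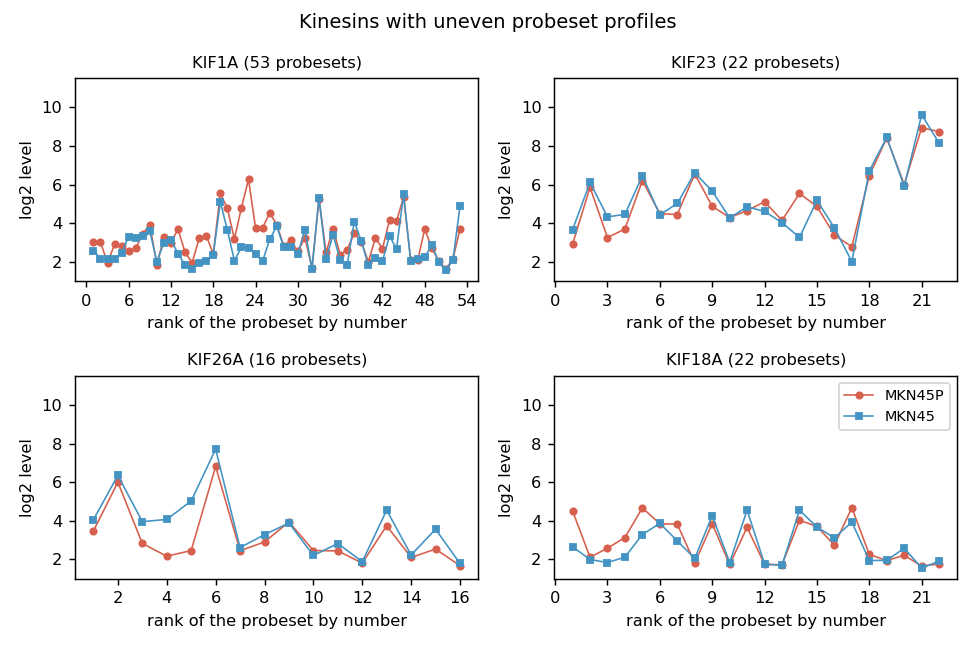
Log2 level of every probeset of KIF1A, KIF23, KIF26A and KIF18A in MKN45P (circles) and MKN45 (squares), in order of probeset number. KIF1A has 18 probesets in a row that are higher in MKN45P, and KIF26A has 8 in a row that are lower. KIF23 has a departing probeset at 5.54 in MKN45P and 3.26 in MKN45. In KIF18A 6 of the 7 lowest-numbered probesets are higher in MKN45P. These stretches were chosen after the values were seen.

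The proteins that work with mitotic kinesins differed little as a list. Of 37 genes of spindle assembly, chromosome attachment and cytokinesis 35 were measured, and their median was 0.09 against 0.03 over all measured genes. Of these 1 was 2-fold higher in MKN45P (2.86%, against 4.58% of all measured genes) and 0 were 2-fold lower (against 1.20%). By difference of median levels 5 were 2-fold higher (14.3%, against 9.62%). NDC80, which ties chromosomes to microtubules, was at 4.33 in MKN45P and 2.60 in MKN45, a difference of 1.25 (0.40 to 1.62 over 17 probesets). After it came AURKB, the kinase of the chromosomal passenger complex (0.74), LIN54, a MuvB protein that contacts the CHR element (0.66), and BUB1, a spindle checkpoint kinase (0.58). Other genes of dividing cells, picked after their values were seen, lay on both sides of 0. ANLN differed by -0.57, ECT2 by -0.53 and MKI67 by -0.49, while CCNB1 differed by 0.02, TOP2A by 0.03, FOXM1 by 0.19, TPX2 by 0.24 and CCNB2 by 0.54.

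Direct partners, chosen for their known binding after their values were seen, lay on either side of 0. The chromosomal passenger proteins carried by KIF20A differed by 0.74 (AURKB), 0.29 (BIRC5), 0.23 (CDCA8) and -0.46 (INCENP), while KIF20A was at -1.24. RACGAP1, which forms centralspindlin with KIF23, differed by 0.06 and KIF23 by -0.22. PRC1, the anaphase bundling protein bound by KIF4A and KIF14, differed by -0.19.

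Partners of transport kinesins lay somewhat higher than all genes by their medians, as did the opposing motor dynein. The lists were not matched for level, and genes whose own level reached 2.77 had a median of 0.12. Without the level filter the median was 0.15 for light chains and adaptors and 0.19 for dynein and dynactin, against 0.00 over all genes. Of 21 light chains and cargo adaptors 18 were measured, with a median of 0.25. Of these 1 was 2-fold higher (5.56%, near the 4.58% of all measured genes) and 0 lower. With quantile scaling 0 were past 2-fold, against 5.46% of all genes. Over probesets with signal 3 were higher (16.7%, against 11.4% of all genes) and 1 lower (5.56%, against 2.94%). RHOT1, a mitochondrial anchor for kinesin-1, was at 6.63 in MKN45P and 5.67 in MKN45, a difference of 1.00 (0.84 to 1.61) that was between 0.86 and 0.98 in 3 other settings. KIDINS220, a cargo adaptor, differed by 0.95, the kinesin-1 light chain KLC2 by 0.83 and TRAK1, which links kinesin-1 to RHOT1, by -0.84. KIFAP3, the subunit that completes the KIF3A and KIF3B complex, differed by 0.49.

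Cytoplasmic dynein runs toward microtubule minus ends, against most kinesins. Of 21 dynein and dynactin genes 17 were measured, with a median of 0.27. Of these 2 were 2-fold higher (11.8%, against 4.58% of all measured genes) and 0 lower. With quantile scaling or the mean of probesets 1 was higher (5.88%, against 3.99% and 4.91% of all genes). By difference of median levels 3 were higher (17.6%, against 9.62%). The light intermediate chain DYNC1LI2 was at 6.10 in MKN45P and 3.99 in MKN45, a difference of 1.25 (0.81 to 1.57). DCTN2, the dynactin subunit dynamitin, was at 6.93 in MKN45P and 6.11 in MKN45, a difference of 1.08 that ranged from 0.82 to 1.11 over settings. NDEL1, a dynein regulator, differed by 0.78. The heavy chain DYNC1H1 lay on the other side, at -0.73 with 83 of 87 probesets lower in MKN45P.

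Of 14 intraflagellar transport genes, whose proteins ride on KIF3A and KIF3B into cilia, 13 were measured. By the median over probesets 0 of these were 2-fold apart and their median was 0.37, with 11 of 13 positive. The largest were IFT57 (0.97), IFT46 (0.92), IFT27 (0.84) and IFT80 (0.80). Over probesets with signal the median was 1.03, with 7 of 13 genes 2-fold higher and 1 lower, where 11.4% of all genes were 2-fold higher and 2.94% lower in that setting. The tubulin list holds alpha and beta tubulins of the track and the divergent gamma, delta and epsilon forms. Its median was 0.08 over 9 measured genes. The largest by size were TUBE1 (0.84), TUBG1 (0.55), TUBD1 (0.40) and TUBB2B (0.17), while TUBB (-0.15), TUBB6 (-0.11) and TUBB2A (-0.07) were negative. Of the alpha tubulins on the list only TUBA4A was measured (0.02). TUBA1C, with 3 probesets, and TUBB4B, with 2, had too few and differed by 0.58 and -0.91. Beta tubulin genes such as TUBB2B have near-identical relatives, so the values of these are uncertain.

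**Figure D4:**
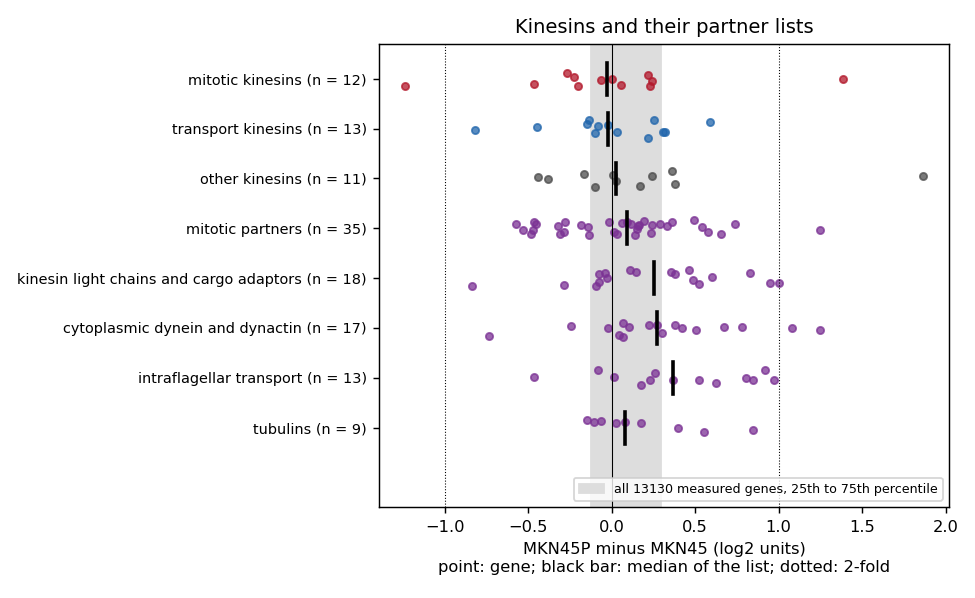
Difference of each measured gene between MKN45P and MKN45 in log2 units for the 3 kinesin groups and 5 lists of partner genes, with the median of each list (black bar) and the 25th to 75th percentile of all 13130 measured genes (grey band, -0.13 to 0.30). The kinesin medians lie between -0.03 and 0.02 and the partner medians between 0.08 and 0.37.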

How the data were processed

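Total RNA of MKN45P and MKN45 cells was measured on 1 Affymetrix exon array per line. The authors deposited 1 value for each of 877986 probesets on each array, taken as log2 from their range (1.42 to 13.48). Partek and hg18 are named per the submitters' processing notes; how background, probe summary and normalization were handled is not given in the sources used here. The values were used as deposited. Of the probesets 286871 named a single gene in the GEO platform annotation, and 19 naming a kinesin and another gene were left out. All 42 kinesin symbols are current in RefSeq (GRCh38.p14), which served for names, chromosomes, gene order and promoter windows. The members, role groups and partner lists were chosen with earlier results of these data known. Every kinesin was described; in each partner list the genes past 2-fold and up to 4 with the largest differences were named. Promoter windows came from RefSeq. Alternatives changed the scaling, the summary of probesets, the filters and the place of KIF2A. Steps were tested on simulated data. Python 3.11.15, numpy 2.4.6, pandas 2.3.3, statsmodels 0.14.6 and matplotlib 3.10.9 were used. The number of arrays limits the precision.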

Additional observations from a re-analysis of the deposited data

How the results depend on the processing

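KIF21B, KIF2C and KIF20A kept their direction and stayed past 2-fold under the other scalings (column centring, quantile, lowess) and summaries (mean, difference of median levels, probesets with signal), and the medians of the mitotic and transport groups stayed within -0.12 and 0.09. With the difference of median levels 2 of 36 kinesins were 2-fold lower (KIF26A added), 5.56% against 2.32% of all genes. With probesets with signal 2 of 34 were lower (KIF12 added), 5.88% against 2.94% of all genes. With examination from the 90th percentile of level, 0 kinesin probesets departed from their gene, without an all-gene share at that level beside it. Of the values of single kinesins under other settings, 196 moved by no more than 0.5 of the width of their spread over probesets and 20 by more, all of the 20 with those summaries; the cause was not tested. Over all genes those summaries gave 1263 and 1218 genes 2-fold higher and 305 and 313 lower, of 13130 and 10645 genes. The main setting gave 602 higher and 157 lower of 13130. The difference of median levels gave 5 mitotic partners 2-fold higher in place of 1 (14.3%) and 3 dynein genes in place of 2 (17.6%). It gave 2 adaptors in place of 1 (11.1%) and 2 intraflagellar transport genes in place of 0 (15.4%). Of all genes 9.62% were higher in that setting. With it 1 adaptor was lower in place of 0 (5.56%, against 2.32% of all genes). Probesets with signal gave 7 intraflagellar transport genes (53.8%), 3 adaptors (16.7%) and 1 tubulin (16.7%) higher, against 11.4% of all genes. They gave 1 adaptor (5.56%) and 1 intraflagellar transport gene (7.69%) lower, against 2.94% of all genes. The mean gave 1 dynein gene in place of 2 (5.88%), as did quantile scaling, which also gave 0 adaptors. The mean, quantile and lowess settings each gave 1 intraflagellar transport gene (7.69%). Of all genes 4.91%, 3.99% and 4.87% were 2-fold higher with the mean, quantile and lowess settings. No paired analysis was possible because each line has 1 array.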
